A study of Schizosaccharomyces pombe with 4 samples.

Results

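The RNAs described here are 764 annotated non-coding RNAs of the fission yeast Schizosaccharomyces pombe that lie opposite protein-coding genes. Each has a gene identifier that begins with SPNCRNA, and at least 50% of its exon length is overlapped by exons of coding genes on the other strand. Coding genes were recognised by identifiers that begin with SPAC, SPAP, SPBC, SPBP, SPCC or SPCP. A further 8 RNAs were left out by name, of which 4 also met the overlap. The 764 antisense RNAs were drawn from 7092 annotated genes, among them 1535 SPNCRNA genes and 5159 coding genes. The overlap rule uses no measured level, but it was set with earlier results of these data known.

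RNA was sequenced from 2 groups of 2 libraries. In the first, the strain is labelled loz1 delta, a deletion of loz1, which encodes a zinc-responsive transcription factor that represses genes such as zrt1, a zinc uptake transporter, when zinc is plentiful. The second is labelled wild type. Both strains were given zinc: the labels describe the minimal medium EMM, low in zinc, to which 100 mM zinc was added, with cells taken at an OD600 near 6.0. That unit is copied from the labels. Neither the marker that replaced loz1 nor the deleted stretch is described in the sources used here, and separate cultures are not named for the libraries within a group. The p-values therefore reflect the scatter among these samples alone, and that scatter may be technical.

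Antisense transcripts arise when RNA polymerase starts at a promoter on the other strand, within or behind a gene, or when a neighbouring gene is read beyond its end. In fission yeast many of them are kept low by nuclear RNA surveillance through the exosome, by RNA interference and heterochromatin, and by histone chaperones and deacetylases that close coding regions. A few act on the gene opposite them, and for most no function is known. Antisense transcription over meiotic genes has been described widely in this species.

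A strand-marking kit is not named and the strand setting of the quantification is not given in the sources used here. Without it, the reads of an antisense RNA and of the sense gene opposite cannot be told apart where their exons overlap, and the value given to each depends on how the software divided them. For the pairs the results turn on, the level is therefore set beside that of the main sense partner, the coding gene with the most overlapping exon bases. The unit is FPKM, fragments per length of transcript and per sequencing depth, so levels can be compared between genes per length.

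The loz1 transcript was higher, not lower, in the libraries labelled as its deletion. Its level was 56.4 and 56.0 FPKM in the libraries labelled deletion, against 6.87 and 5.81 FPKM in wild type, a log2 difference of 2.97 ± 0.14 (SE, adjusted p = 0.00112). Which part of the gene was removed is not stated, so whether this level speaks against the label cannot be settled, and every direction below holds for the libraries as labelled. Markers of mating type also differed with the label: all 7 tested genes of an 8-gene list of M cell markers were lower in the labelled deletion, and their summed level was 159 and 151 FPKM there, against 5066 and 18680 FPKM in wild type. The defining mat1-Mc had 0 and 0.14 FPKM in the labelled deletion, against 159 and 257 FPKM in wild type. Of a 6-gene list of P cell markers only 3 were matched and tested, and mat1-Pc, mat2-Pc and mat1-Pm had no value. Of these 3, map2 and map3 were higher in the labelled deletion, and map1 was not called (log2 difference -0.28). The summed level of the 3 was 60.6 and 55.7 FPKM, against 34.4 and 42.3 FPKM in wild type. In bulk RNA, fewer cells of a type and less RNA per cell cannot be told apart. Sequencing depth, estimated from the width of the deposited bounds, was 1.65e+07 and 1.76e+07 fragments for the labelled deletion and 1.55e+07 and 1.56e+07 for wild type.

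Loz1 binds a short element in the promoters of the genes it represses. This Loz1 response element was searched on both strands from 500 nt before to 50 nt after the start of each RNA, and stood before 2 of the 736 antisense RNAs that RefSeq also annotates (0.272%), against 82 of 12606 annotated starts of all kinds (0.65%). The sites of both RNAs are printed below with those before zrt1 and loz1, because these are the RNAs of the set that hold the element in that window. Sequences are RefSeq's, build ASM294v3, 5′ to 3′ on the strand of the transcript, and capitals mark the element, which lies on the other strand at SPNCRNA.931 and so appears there as its reverse complement.
SPNCRNA.1637: gggaactctCGGCGATCTTTgatgctggat
SPNCRNA.931: ggaagcgtaAACGATCGTCGgaagtcgggt
zrt1: attttcaagCGTCGATCCTTaaaccttggt
loz1: ttacttcaaCGCAGATCATTcgtcgatcat
The stretch before SPNCRNA.1637 is chrII:3770101-3770130 on the plus strand, and the element begins 85 nt before the start of the RNA. The stretch before SPNCRNA.931 is chrI:3732450-3732479 on the minus strand, with the element 191 nt before the start. The sites before zrt1 and loz1 lie at chrII:3606974-3607003, plus strand, and chrI:4195587-4195616, minus strand.

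Both RNAs changed, in opposite directions. SPNCRNA.1637 had 15.5 and 13.5 FPKM in the labelled deletion libraries, against 0.41 and 0.98 FPKM in wild type, a log2 difference of 3.22 ± 0.26 (SE, adjusted p = 0.00401). SPNCRNA.931 had 16.8 and 19.5 FPKM in the labelled deletion, against 59.0 and 43.2 FPKM in wild type, a log2 difference of -1.43 ± 0.19 (SE, adjusted p = 0.0134). In neither did the groups overlap. Without labelled deletion replicate 1 the adjusted p of SPNCRNA.931 was 0.124 and without replicate 2 it was 0.0932, while SPNCRNA.1637 kept its call whichever library was left out. A looser form on either strand (CG, any 2 bases, GATC, any base and T), which covers both of these sites, stood before 16 of the 736 antisense RNAs (2.17%) and before 313 of the 12606 starts (2.48%), and of its 14 tested carriers SPNCRNA.1637 rose, SPNCRNA.931 fell and 12 were not called. A match describes the letters only and is no evidence of binding.

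The antisense RNAs are long, unspliced and lie mostly over the transcribed body of their partners. All but 2 have a single exon, exon length had a median of 1315 nt with a range of 76 to 5317 nt, and a median of 88.1% of it was overlapped by opposite coding exons. Full cover was found for 172, and 194 lay opposite more than 1 coding gene. By position, 238 lay inside the main partner, 255 over its 5′ end, 161 over its 3′ end, and 110 spanned it. They stood opposite 717 different main partners, with 89 RNAs sharing a partner, and 203 also overlapped another gene on their own strand. Chromosome I held 346, chromosome II 272 and chromosome III 146. The membership rests on the untranslated ends of the coding genes as the files give them. Overlap with the RefSeq annotation was computed for the 733 of the 764 that have the same coordinates there. Of these 733, 647 still reached the 50% overlap with RefSeq coding exons. At least 50% of the length lay over coding sequence proper for 493, and 86 had none there.

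Most antisense RNAs were detected at low levels. The mean over the 4 libraries had a median of 6.50 FPKM and quartiles of 2.52 and 16.3 FPKM, with 443 at 5 FPKM or more, 49 at 50 or more and 23 at 100 or more. A mean under 1 FPKM kept 114 out of the tests, and 2 more were too short, which left 648 tested. Values under 0.01 FPKM in at least 1 library were listed for 116, and in all 4 libraries for 41. Such a value is not a measured absence, because 38 coding genes were listed below 0.01 FPKM in all 4 libraries as well, among them rpa49, which encodes an RNA polymerase I subunit.

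The 5 highest mean levels belonged to SPNCRNA.1376, SPNCRNA.1302, SPNCRNA.645, SPNCRNA.25 and SPNCRNA.798. SPNCRNA.1376, inside the elongation factor gene tef103, had 1575 and 2597 FPKM in the labelled deletion, against 1177 and 2629 FPKM in wild type. Its partner had 7189 and 7879 FPKM in the labelled deletion, against 7595 and 8819 FPKM in wild type. The groups overlapped for both, and 82.7% of SPNCRNA.1376 is sequence also found elsewhere in the genome in stretches of 100 nt, so its level is uncertain. SPNCRNA.1302, inside the enolase gene eno102, had 366 and 374 FPKM in the labelled deletion, against 1177 and 724 FPKM in wild type, and fell by 1.32 on the log2 scale (SE 0.24, adjusted p = 0.0307). The values of eno102 itself ran beside it, at 315 and 364 FPKM in the labelled deletion and 1109 and 712 FPKM in wild type, with a log2 difference of -1.39 (adjusted p = 0.0246). SPNCRNA.25, inside atp7, which encodes a subunit of the mitochondrial ATP synthase, had 417 and 475 FPKM in the labelled deletion, against 547 and 607 FPKM in wild type (adjusted p = 0.102), and atp7 had 426 and 377 FPKM in the labelled deletion and 446 and 519 FPKM in wild type. SPNCRNA.645 over the 3′ end of the amidotransferase gene SPAC13C5.04 differed from these, since it stood far above its partner: it had 358.9 and 387.6 FPKM in the labelled deletion and 833 and 564 FPKM in wild type, where the partner had 35.0 and 18.8 FPKM and 56.6 and 66.4 FPKM. It fell by 0.88 on the log2 scale (adjusted p = 0.0493). SPNCRNA.798, inside the hydrolase gene SPAC23C11.06c, had 274 and 208 FPKM in the labelled deletion and 882 and 190 FPKM in wild type, so a single wild type library carried its high level, while the partner had 238 and 302 FPKM in the labelled deletion and 330.3 and 449 FPKM in wild type. Leaving out labelled deletion replicate 1 or 2 ended the calls of SPNCRNA.1302, SPNCRNA.645 and eno102, and so did leaving out the filter on low values. Without the intensity trend SPNCRNA.1302 and SPNCRNA.645 were not called either. That of SPNCRNA.645 was also lost with a pseudocount of 0.1 and with a replicate block.

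In some pairs nearly all of the signal was assigned to a single gene of the pair. How the software divided the reads there was not tested. SPNCRNA.74 lies wholly inside eta2, the gene of an RNA polymerase I termination factor, and had 268 and 285 FPKM in the labelled deletion, against 404 and 566 FPKM in wild type. The files list eta2 below 0.01 FPKM in all 4 libraries, although 3 further antisense RNAs overlap it, with SPNCRNA.872 at 20.4 and 18.9 FPKM in the labelled deletion and 22.9 and 26.9 FPKM in wild type. In all, 8 antisense RNAs had a main partner listed below 0.01 FPKM everywhere, and 4 of them had a mean of at least 5 FPKM. The reverse was found for 40 of the 41 antisense RNAs listed below 0.01 FPKM in every library, whose partner had at least 1 FPKM in each library, and 26 of those 41 were fully covered by opposite coding exons.

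The first comparison asked which antisense RNAs differed between the strains. Of 648 tested, 41 were higher in the labelled deletion (6.33%) and 37 were lower (5.71%), at an adjusted p under 0.05 over all 6315 genes tested. Over all those genes, 11.9% were called higher and 4.37% lower, so the share of rises was below that of all genes and the share of falls was above it. The other SPNCRNA genes gave 47 higher (8.06%) and 58 lower (9.95%) of 583, and coding genes 659 higher (13.1%) and 176 lower (3.49%) of 5036. The median log2 difference was 0.06 over the tested antisense RNAs, 0.13 over all genes tested and 0.14 over the 698 tested main sense partners. At least 2-fold changes on the log2(FPKM + 1) scale were found for 24 of the rises and 24 of the falls. Wild type libraries lay wholly below the labelled deletion for 204 antisense RNAs and wholly above for 154, against 44.7% and 21.6% of all genes. Replicates of antisense RNAs were more scattered than those of genes in general, with a median absolute log2 difference of 0.18 between replicates of the labelled deletion and 0.34 between those of wild type. Over all genes these medians were 0.09 and 0.24, and over the other SPNCRNA genes they were 0.18 and 0.40, so the wider scatter was not particular to antisense RNAs.

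The balance of rises and falls depended on the scale. Median-ratio rescaling of the libraries lowered the median of all genes by 0.14 on the log2 scale, and then 27 antisense RNAs were called higher and 42 lower. Of the calls, 39.1% were rises after rescaling, against 52.6% on the values as deposited. Over all genes tested the share of rises dropped as well, to 56.8% after rescaling from 73.2% as deposited. It also turned the median of the antisense RNAs to -0.06. Leaving out labelled deletion replicate 1 left 6 calls higher and 3 lower, and leaving out replicate 2 left 5 and 5. Without wild type replicate 1 there were 131 and 106 calls, and without replicate 2 there were 98 and 86. The calls that stood whichever library was left out, and under every other pseudocount, filter, trend, scaling and block setting tried, were the rises of SPNCRNA.1319, SPNCRNA.1637, SPNCRNA.945 and SPNCRNA.953 and the falls of SPNCRNA.973 and SPNCRNA.1290.

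**Figure D1:**
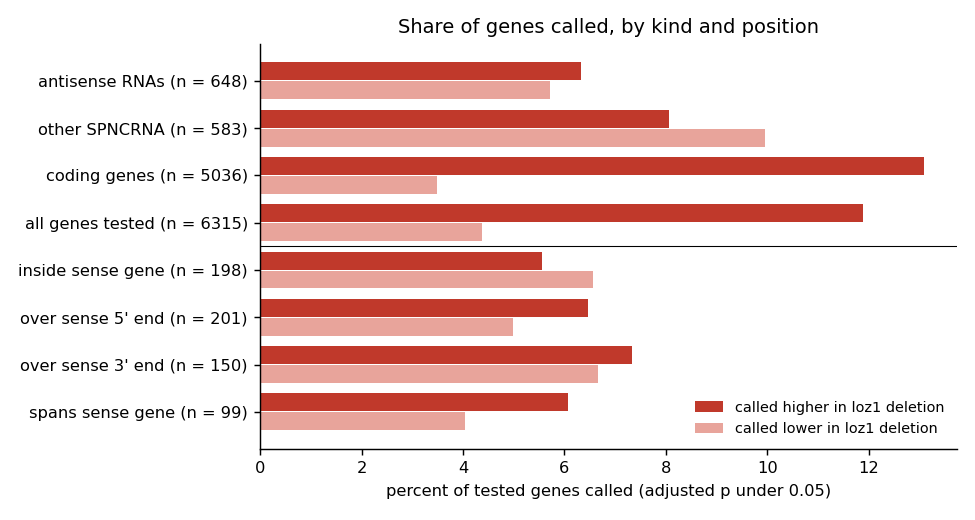
Horizontal bars show the percent of tested genes called higher (dark) or lower (light) in the labelled loz1 deletion at an adjusted p under 0.05, for antisense RNAs and other kinds of gene above the line and for antisense RNAs by position below it. Antisense RNAs had 6.33% higher and 5.71% lower, against 11.9% and 4.37% of all genes tested, and the 4 positions lay between 5.56% and 7.33% higher and between 4.04% and 6.67% lower.

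By position relative to the partner, RNAs inside the partner gave 11 higher and 13 lower of 198 tested, those over its 5′ end 13 and 10 of 201, those over its 3′ end 11 and 10 of 150, and those spanning it 6 and 4 of 99. By the share overlapped, RNAs wholly overlapped by coding exons gave 10 higher and 12 lower of 132, and those with 50% to under 75% overlap gave 14 and 10 of 157. RNAs just inside the overlap threshold, from 50% to under 55%, gave 1 higher and 2 lower of 16 tested, and SPNCRNA genes just outside it, from 45% to under 50%, gave 2 and 1 of 24. No test of the difference between these classes was made.

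The largest rise was opposite ght4, which encodes a hexose transporter of the plasma membrane. SPNCRNA.1319, at II:157362-158316 on the minus strand in the files' build ASM294v2 and wholly inside ght4, had 313 and 368 FPKM in the labelled deletion libraries, against 34.6 and 14.3 FPKM in wild type. Its log2 difference was 3.87 ± 0.40 (SE, adjusted p = 0.00765). The sense gene rose as well but by less: ght4 had 271 and 302 FPKM in the labelled deletion, against 101.4 and 55.3 FPKM in wild type, a log2 difference of 1.92 ± 0.29 (SE, adjusted p = 0.0196). In the labelled deletion the antisense RNA thus stood above ght4 in both libraries, and in wild type it stood below it in both. The change of the antisense RNA exceeded that of ght4 by 1.95 ± 0.28 on the log2 scale (SE, adjusted p = 0.0343). That call was lost with a pseudocount of 0.1, with a replicate block, and without labelled deletion replicate 1, replicate 2 or wild type replicate 2. The call of ght4 was lost without the filter on low values and without labelled deletion replicate 1 or 2.

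The next antisense RNA on the same strand moved the other way. SPNCRNA.1318 runs from the 5′ part of ght4 back over the 3′ end of mal1, which encodes a maltase, and had 0.95 and 1.42 FPKM in the labelled deletion, against 14.4 and 7.36 FPKM in wild type, a log2 difference of -2.38 ± 0.36 (SE, adjusted p = 0.0195). Its main partner mal1 had 137 and 144 FPKM in the labelled deletion, against 71.1 and 58.8 FPKM in wild type, and rose by 1.11 on the log2 scale (adjusted p = 0.00925). At this locus, then, a pair of coding genes and the antisense RNA inside the second were all higher in the labelled deletion, while the antisense RNA across their junction was lower. Its change fell below that of mal1 by 3.49 ± 0.33 on the log2 scale (SE, adjusted p = 0.0135), and this difference was called under every setting tried. Without labelled deletion replicate 1 or 2 the adjusted p was 0.128 and 0.0983 for SPNCRNA.1318 alone and 0.098 and 0.116 for mal1, so neither kept its call.

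**Figure D2:**
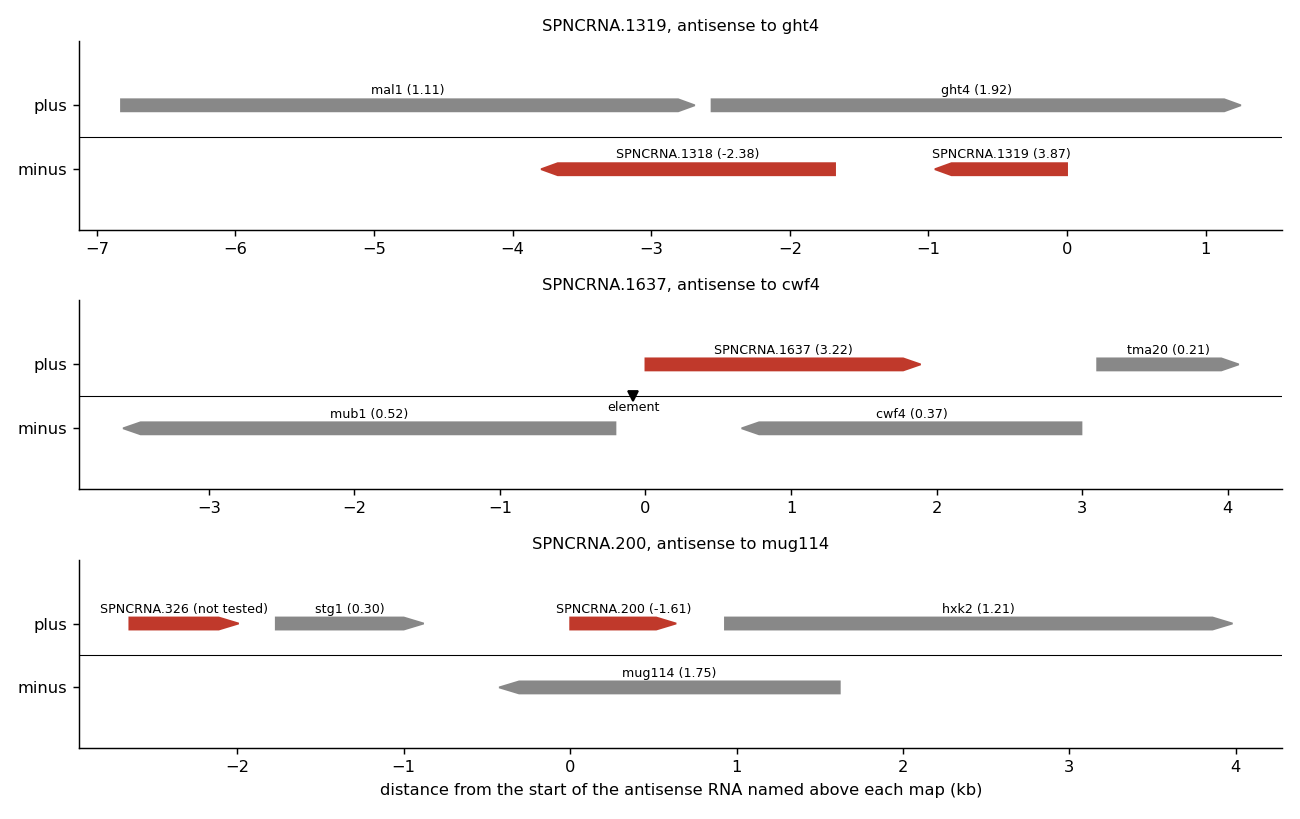
Each map places the antisense RNAs of this set (red) and coding genes (grey) of a locus by distance in kb from the start of the antisense RNA named above it, with plus-strand genes above the line and minus-strand genes below it, and with the log2 difference, labelled loz1 deletion minus wild type, in brackets. SPNCRNA.1319 (3.87) lies inside ght4 (1.92) while SPNCRNA.1318 (-2.38) crosses from ght4 to mal1 (1.11), a Loz1 response element stands between SPNCRNA.1637 and mub1, and SPNCRNA.200 (-1.61) lies inside mug114 (1.75), and other non-coding genes are not drawn.

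Among the other large rises, SPNCRNA.945 had the greatest distance from its partner. It had 8.64 and 11.9 FPKM in the labelled deletion, and both wild type libraries listed it below 0.01 FPKM. Its log2(FPKM + 1) difference of 3.48 ± 0.28 (SE, adjusted p = 0.00378) depends on the pseudocount and is no fold. The partner SPAC1071.13, of unknown function, had 24.0 and 23.7 FPKM in the labelled deletion, against 67.3 and 89.8 FPKM in wild type, and fell by 1.66 on the log2 scale (adjusted p = 0.00619). The strand difference was 5.14 ± 0.32 on the log2 scale (SE, adjusted p = 0.00358), the largest of the pairs and called under every setting tried. RefSeq gives SPAC1071.13 a shorter transcript that does not overlap SPNCRNA.945 at all (0%), so it belongs to the set only by the files' gene model. The fall of SPAC1071.13 lost its call without labelled deletion replicate 1 (adjusted p = 0.057) or 2 (adjusted p = 0.0616).

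SPNCRNA.1637, introduced above by its element, lies over the 3′ end of cwf4, which encodes a splicing factor. The partner had 33.5 and 34.01 FPKM in the labelled deletion and 27.2 and 24.7 FPKM in wild type, and was not called (adjusted p = 0.0898). The antisense RNA rose beyond it by 2.85 ± 0.33 on the log2 scale (SE, adjusted p = 0.0221), a call that was lost only with a pseudocount of 0.1. Upstream, on the other strand and 206 nt away, starts mub1, which had 57.0 and 55.3 FPKM in the labelled deletion, against 42.1 and 36.1 FPKM in wild type, and rose by 0.52 on the log2 scale (adjusted p = 0.0468), a call lost without labelled deletion replicate 1 or 2 at adjusted p of 0.428 and 0.377. The element thus lies between the divergent starts of an antisense RNA and a coding gene that were both higher in the labelled deletion.

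SPNCRNA.953 and SPNCRNA.956 rose opposite genes that were not called. SPNCRNA.953, over the 5′ end of the protein kinase gene ppk18, had 70.3 and 63.0 FPKM in the labelled deletion, against 16.1 and 18.7 FPKM in wild type, a log2 difference of 1.88 ± 0.13 (SE, adjusted p = 0.00288), and ppk18 had 26.3 and 25.1 FPKM in the labelled deletion and 30.1 and 27.4 FPKM in wild type. SPNCRNA.956, a 206 nt RNA inside dal1, which encodes ureidoglycolate hydrolase, had 63.2 and 72.2 FPKM in the labelled deletion, against 18.3 and 19.5 FPKM in wild type, a log2 difference of 1.79 ± 0.12 (SE, adjusted p = 0.00288), and dal1 had 12.6 and 13.5 FPKM in the labelled deletion and 12.4 and 15.4 FPKM in wild type. Both strand differences were called, at 2.04 (adjusted p = 0.0343) and 1.87 (adjusted p = 0.0343) on the log2 scale. Both calls were lost with a pseudocount of 0.1, with a replicate block, and without labelled deletion replicate 1, replicate 2 or wild type replicate 2. RefSeq's coding exons cover 31.4% of SPNCRNA.953 and 79.1% of SPNCRNA.956.

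For SPNCRNA.1209 and SPNCRNA.615 the sense gene rose together with the antisense RNA. SPNCRNA.1209, over the 3′ end of the hydroxyacylglutathione hydrolase gene SPCC13B11.03c, had 19.1 and 16.3 FPKM in the labelled deletion, against 2.11 and 2.94 FPKM in wild type, a log2 difference of 2.41 ± 0.21 (SE, adjusted p = 0.00459), and its partner rose by 1.23 on the log2 scale (adjusted p = 0.0077), a call lost without labelled deletion replicate 1 or 2 at adjusted p of 0.146 and 0.142. SPNCRNA.615, over the 5′ end of the NADPH dehydrogenase gene SPAC5H10.10, had 76.8 and 63.3 FPKM in the labelled deletion, against 14.2 and 18.7 FPKM in wild type, a log2 difference of 2.03 ± 0.18 (SE, adjusted p = 0.0046). Here the partner rose by more, with 100.7 and 118 FPKM in the labelled deletion, against 10.1 and 8.21 FPKM in wild type, a log2 difference of 3.44 (adjusted p = 0.0011). The last of the 8 largest rises, SPNCRNA.69, lies over the 5′ end of rec7, which encodes a meiotic recombination protein, and had 15.9 and 16.1 FPKM in the labelled deletion, against 6.83 and 3.25 FPKM in wild type, a log2 difference of 1.56 ± 0.32 (SE, adjusted p = 0.0382). It is wholly overlapped (100%) by other non-coding genes of its own strand, so its reads are shared with them. Leaving out labelled deletion replicate 1 ended the calls of SPNCRNA.1209, SPNCRNA.615 and SPNCRNA.69 with adjusted p between 0.0544 and 0.243, and leaving out replicate 2 ended those of SPNCRNA.1209, SPNCRNA.956 and SPNCRNA.69 with adjusted p between 0.0519 and 0.254.

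**Figure D3:**
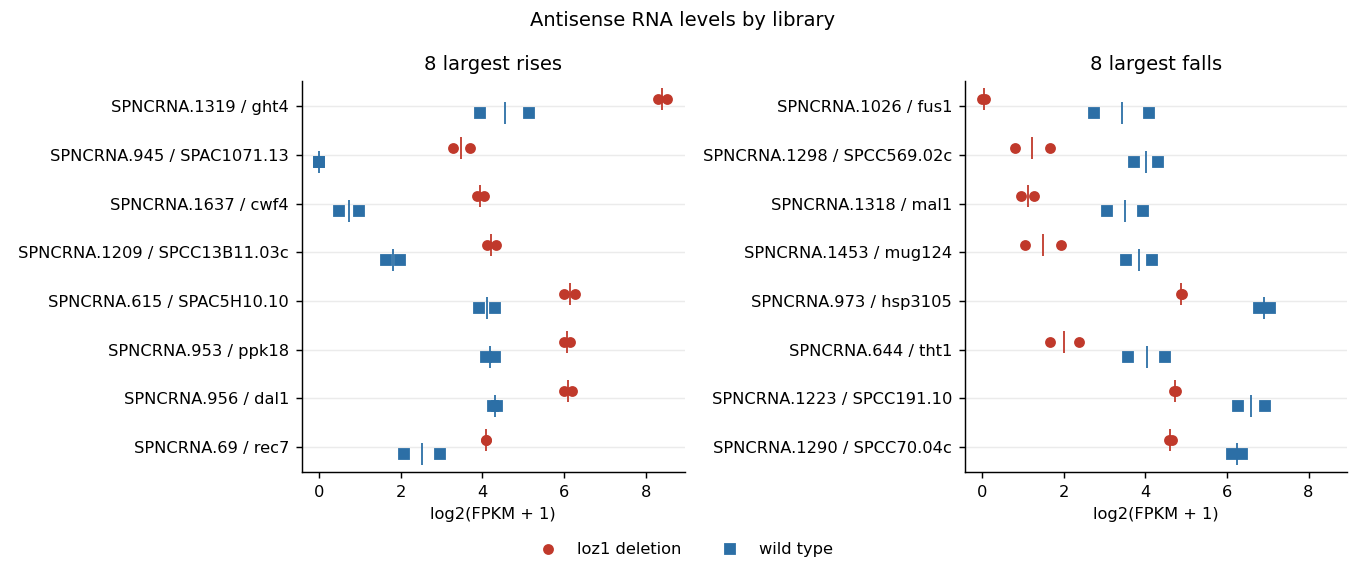
Points give log2(FPKM + 1) of the 8 antisense RNAs with the largest called rises (left) and falls (right) in each library, labelled loz1 deletion as red circles above wild type as blue squares, with a vertical tick at each group's mean and the sense partner named after the RNA. The groups do not overlap in any of the 16, as the rule that chose them required, and wild type libraries lie farther apart than labelled deletion libraries for SPNCRNA.1319 and SPNCRNA.1026.

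The largest falls were mostly opposite genes whose own level was not called different. Most main sense partners were not called in any case: of 698 tested, 80 were higher (11.5%) and 38 lower (5.44%). SPNCRNA.973, over the 5′ end of hsp3105, which encodes a glyoxalase, had 28.3 and 28.9 FPKM in the labelled deletion, against 133 and 109 FPKM in wild type, a log2 difference of -2.03 ± 0.13 (SE, adjusted p = 0.00248). Its partner had 6.57 and 4.51 FPKM in the labelled deletion and 7.72 and 2.27 FPKM in wild type, so the antisense RNA was the more abundant of the pair in every library. SPNCRNA.1290, over the 3′ end of SPCC70.04c, of unknown function, had 22.9 and 24.2 FPKM in the labelled deletion, against 81.5 and 69.2 FPKM in wild type, a log2 difference of -1.63 ± 0.12 (SE, adjusted p = 0.00349). Its partner SPCC70.04c had 24.3 and 20.8 FPKM in the labelled deletion and 23.7 and 28.6 FPKM in wild type, so the pair was near level in the labelled deletion and the antisense RNA was above it in both wild type libraries. SPNCRNA.1223, which spans SPCC191.10, had 24.999 and 25.8 FPKM in the labelled deletion, against 121 and 76.1 FPKM in wild type, a log2 difference of -1.88 ± 0.23 (SE, adjusted p = 0.0112), and its partner was listed below 0.01 FPKM in every library.

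The 4 remaining falls opposite genes other than mal1 had lower levels. SPNCRNA.1026 is wholly inside fus1, which encodes a formin for cell fusion in mating, and had under 0.01 and 0.06 FPKM in the labelled deletion, against 5.74 and 16.1 FPKM in wild type, a log2 difference of -3.38 ± 0.49 (SE, adjusted p = 0.0178), where fus1 had 16.1 and 13.8 FPKM in the labelled deletion and 28.8 and 18.3 FPKM in wild type. SPNCRNA.1298, over the 3′ end of SPCC569.02c, had 2.19 and 0.74 FPKM in the labelled deletion, against 18.8 and 12.3 FPKM in wild type, a log2 difference of -2.78 (adjusted p = 0.0151), and 15.6% of it is sequence found elsewhere in the genome. SPNCRNA.1453, inside the meiotic gene mug124, had 1.07 and 2.80 FPKM in the labelled deletion, against 10.6 and 17.0 FPKM in wild type, a log2 difference of -2.37 (adjusted p = 0.0231). SPNCRNA.644, inside tht1, which encodes a nuclear membrane protein needed for nuclear fusion after mating, had 4.16 and 2.17 FPKM in the labelled deletion, against 10.9 and 21.5 FPKM in wild type, a log2 difference of -2.01 (adjusted p = 0.037). None of the 4 partners was called. Of the 8 largest falls, 3 kept the call without labelled deletion replicate 1 and 2 kept it without replicate 2, and the adjusted p of the others lay between 0.0541 and 0.229.

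Antisense RNAs opposite mating genes were examined because the M cell markers differed so widely between the strains. The set holds 6. Besides SPNCRNA.1026, SPNCRNA.1067 fell: it covers the 5′ end of map1, which encodes a transcription factor of P cell genes, and had 4.36 and 4.04 FPKM in the labelled deletion, against 8.50 and 9.89 FPKM in wild type, a log2 difference of -0.97 ± 0.19 (SE, adjusted p = 0.0342), where map1 had 24.97 and 26.05 FPKM in the labelled deletion and 27.2 and 35.8 FPKM in wild type. Both calls were lost without either labelled deletion library, with adjusted p between 0.091 and 0.321. SPNCRNA.674 over byr1, which encodes a kinase of the pheromone pathway, was among the more abundant, with 78.1 and 73.3 FPKM in the labelled deletion and 60.3 and 72.8 FPKM in wild type, and was not called (adjusted p = 0.338); byr1 had 90.2 and 87.8 FPKM in the labelled deletion and 92.5 and 100.2 FPKM in wild type. SPNCRNA.1503 over the 5′ end of gpa1, which encodes the G protein alpha subunit of the pheromone receptor pathway, had 11.1 and 10.8 FPKM in the labelled deletion and 12.1 and 18.3 FPKM in wild type (adjusted p = 0.247). The sense gene gpa1 had 71.2 and 64.7 FPKM in the labelled deletion, against 92.1 and 95.5 FPKM in wild type, and fell by 0.46 on the log2 scale (adjusted p = 0.0423). That call was lost without the filter on low values, without the intensity trend, with a replicate block, and without labelled deletion replicate 1 or 2. SPNCRNA.675, opposite the regulator gene rgs1, was listed below 0.01 FPKM in all 4 libraries although rgs1 fell by 1.77 on the log2 scale (adjusted p = 0.0219). The call of rgs1 was lost without the filter on low values and without labelled deletion replicate 1 or 2. The part of the mating-type difference in these values was not tested.

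SPNCRNA.1227 spans ste6, the gene of a Ras activator needed for mating, and gave the second largest strand difference. It had 2.77 and 2.60 FPKM in the labelled deletion and 1.47 and 1.46 FPKM in wild type, and was not called on its own (adjusted p = 0.174). The sense gene had 8.78 and 6.51 FPKM in the labelled deletion, against 57.0 and 78.6 FPKM in wild type, and fell by 2.99 on the log2 scale (adjusted p = 0.00313). The difference between the strands was 3.57 ± 0.31 on the log2 scale (SE, adjusted p = 0.011), and it was called under every setting that tested the pair. Among the zinc, sugar and phosphate genes of the rule in the methods, fet4 alone had an antisense RNA in the set, SPNCRNA.1339, which was listed below 0.01 FPKM in all libraries, while fet4, an iron and zinc transporter gene, had 10.1 and 8.98 FPKM in the labelled deletion and 6.64 and 4.25 FPKM in wild type (adjusted p = 0.104).

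The second comparison asked whether an antisense RNA changed by another amount than the gene opposite it. Both members of the pair passed the filters for 631 antisense RNAs. In the fit over 808 opposite-strand pairs, which includes pairs with less overlap, 1.98% were called with the antisense change above the sense change and 1.11% with it below. Of the 631, 10 were called above and 6 below. With a pseudocount of 0.1 the calls of 2 of the 10, SPNCRNA.945 and SPNCRNA.1227, and of 4 of the 6, SPNCRNA.1318, SPNCRNA.200, SPNCRNA.1041 and SPNCRNA.1323, were kept. Pearson's r of the changes on the 2 strands across the 631 pairs was 0.17 and Spearman's rho was 0.14, a description over pairs that share the same 4 libraries and are not independent. The sign of the change was shared by 355 pairs (56.3%). In 21 pairs both strands were called in the same direction, in 6 both were called in opposite directions, in 46 the antisense RNA alone and in 82 the sense gene alone. Where the main partner covered at least 90% of the antisense RNA, r was 0.07 over 228 pairs, and under 90% it was 0.25 over 403.

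Across pairs the mean log2 levels had r = 0.17, and 0.38 where the cover was at least 90%. The antisense RNA was below its partner in every library for 406 pairs and above it in every library for 102. In 25 pairs the values were within 0.5 log2 units of each other in each library, as in SPNCRNA.1302 and eno102. Between the replicates of the labelled deletion the differences of antisense and sense ran against each other, with r = -0.31, and -0.42 where the cover was at least 90%, whereas between the wild type replicates r was 0.01. What moves the replicate differences of the strands against each other was not tested.

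**Figure D4:**
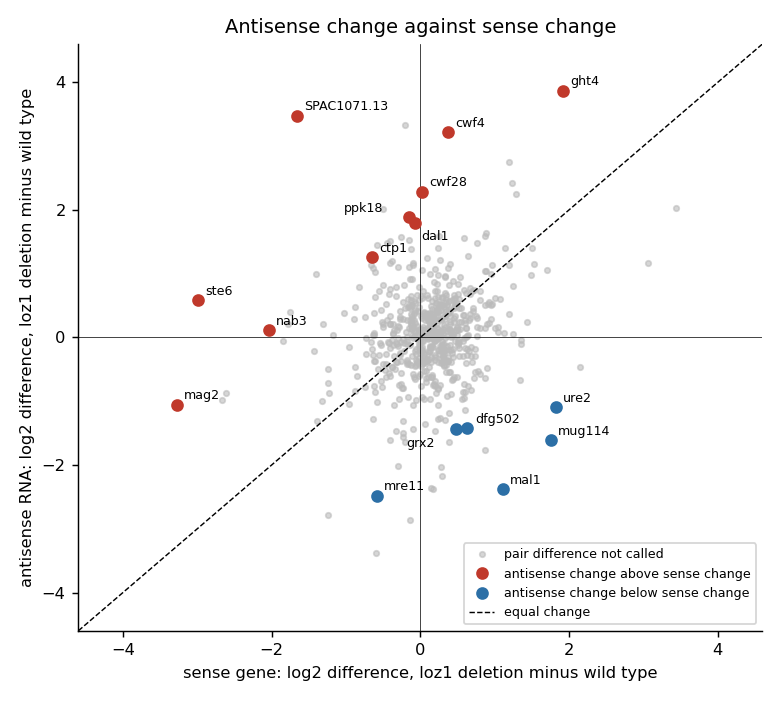
Each point is one of the 631 pairs, with the log2 difference of the sense gene, labelled loz1 deletion minus wild type, on the horizontal axis and that of the antisense RNA on the vertical axis; the dashed line marks equal change. The 10 red and 6 blue points are pairs called for a strand difference, named by the sense gene, and the grey cloud has r = 0.17.

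The 16 called pairs include 11 in which the strands changed sign against each other, and in 6 of these both changes were called. The pairs of SPNCRNA.945, SPNCRNA.1227, SPNCRNA.1318, SPNCRNA.953 and SPNCRNA.956 are given above. SPNCRNA.200, inside mug114, a gene named for its rise in meiosis, was listed below 0.01 FPKM in both labelled deletion libraries, against 1.74 and 2.42 FPKM in wild type. Its partner had 3.47 and 4.14 FPKM in the labelled deletion, against 0.37 and 0.48 FPKM in wild type, and the strand difference was -3.37 ± 0.27 on the log2 scale (SE, adjusted p = 0.00949). Each gene of the pair was thus given its higher values where the other was low. As the strand setting is not given, a change of strand and another division of shared reads cannot be told apart here. The separate calls of SPNCRNA.200 and mug114 were lost with a replicate block and without labelled deletion replicate 1 or 2. That of SPNCRNA.200 was also lost with a pseudocount of 5 and after rescaling. A filter at a mean of 5 FPKM left both genes, and so the pair, untested.

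The order of the values given to SPNCRNA.1041 and ure2 differed between the groups. How the software divided the reads they share was not tested. The antisense RNA covers the 5′ end of ure2, a urease gene, and had 11.7 and 11.8 FPKM in the labelled deletion, against 29.3 and 23.5 FPKM in wild type, a log2 difference of -1.09 ± 0.16 (SE, adjusted p = 0.0174). The values of ure2 were 34.7 and 33.8 FPKM in the labelled deletion, against 8.22 and 9.79 FPKM in wild type, a log2 difference of 1.82 ± 0.14 (SE, adjusted p = 0.00378). The antisense RNA was thus above ure2 in wild type and below it in the labelled deletion, with a strand difference of -2.92 ± 0.31 (SE, adjusted p = 0.0156) that was called under every setting tried. Without labelled deletion replicate 1 or 2 the adjusted p was 0.2002 and 0.203 for SPNCRNA.1041 alone and 0.0696 and 0.0687 for ure2, so neither kept its call.

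The remaining opposite pairs were smaller. SPNCRNA.931, which carries the element printed above, lies opposite grx2, a glutaredoxin gene with 130 and 120 FPKM in the labelled deletion, against 89.5 and 88.4 FPKM in wild type, and the strand difference was -1.91 (adjusted p = 0.0425). SPNCRNA.1189 spans ctp1, which encodes a nuclease cofactor of DNA end resection, and had 3.65 and 3.56 FPKM in the labelled deletion, against 1.15 and 0.73 FPKM in wild type, while ctp1 had 36.4 and 32.7 FPKM in the labelled deletion, against 53.1 and 56.4 FPKM in wild type. Both changes were called, though neither without labelled deletion replicate 1 or 2 (adjusted p between 0.238 and 0.328), and the strand difference was 1.91 (adjusted p = 0.0391). SPNCRNA.1323, over the mannosidase gene dfg502, had 1.13 and 0.82 FPKM in the labelled deletion, against 3.83 and 4.81 FPKM in wild type, while dfg502 had 5.68 and 5.55 FPKM in the labelled deletion and 2.69 and 4.01 FPKM in wild type, with a strand difference of -2.05 (adjusted p = 0.0343). SPNCRNA.666 had 11.3 and 10.4 FPKM in the labelled deletion and 11.7 and 8.42 FPKM in wild type, groups that overlap, and its pair was called because nab3, which encodes a poly(A)-binding protein, fell by 2.04 on the log2 scale (adjusted p = 0.00288). Of the 10 opposite pairs with the largest difference, 5 lost the call without labelled deletion replicate 1, with adjusted p between 0.0764 and 0.144, and 5 without replicate 2, with adjusted p between 0.0705 and 0.129. The same pairs were lost without wild type replicate 2, and that of SPNCRNA.931 also without wild type replicate 1. With a replicate block the pairs of SPNCRNA.931, SPNCRNA.1189, SPNCRNA.1323 and SPNCRNA.953 were lost. With a pseudocount of 0.1 those of SPNCRNA.931, SPNCRNA.1189, SPNCRNA.953 and SPNCRNA.666 were lost.

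**Figure D5:**
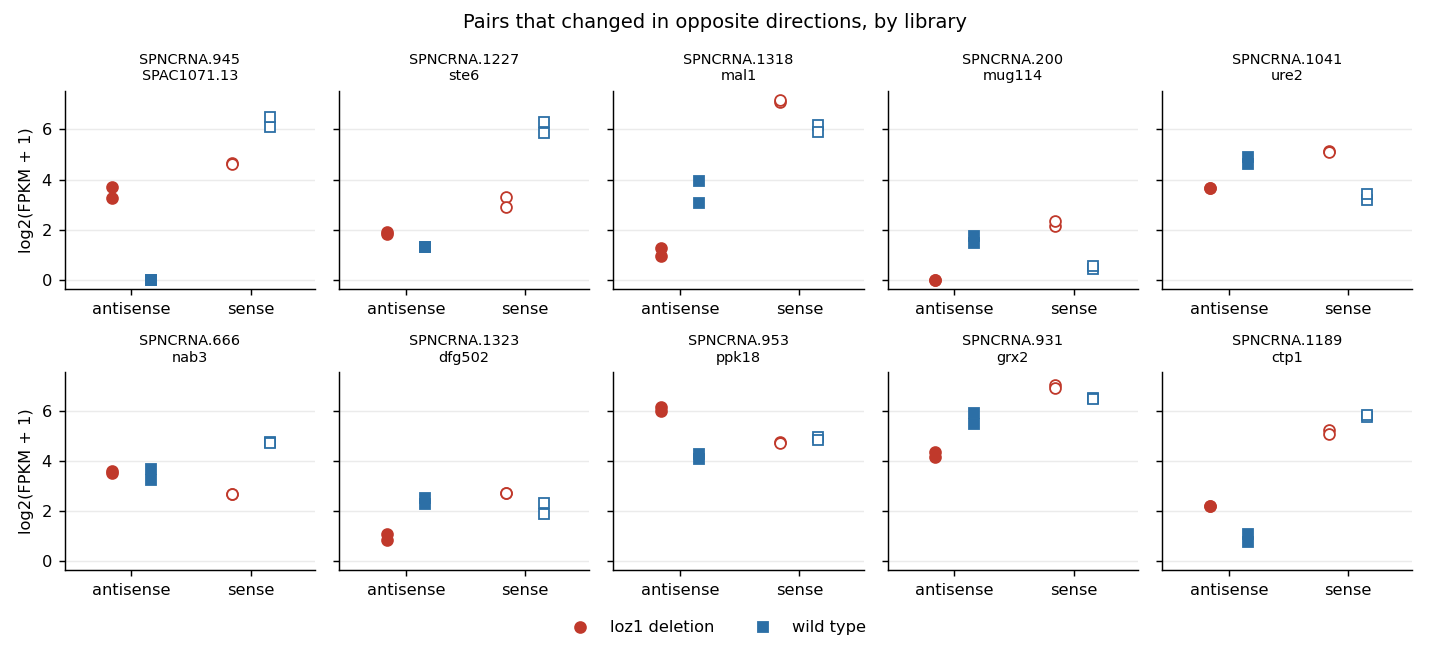
Panels show log2(FPKM + 1) of the antisense RNA (filled) and of its sense gene (open) in each library for the 10 largest called strand differences in which both strands moved in opposite directions, with labelled loz1 deletion as red circles to the left of wild type as blue squares. In the panels of SPNCRNA.1041, SPNCRNA.200, SPNCRNA.953, SPNCRNA.1323 and SPNCRNA.666 the gene of the pair with the higher value differs between the groups, and in that of SPNCRNA.666 the antisense values overlap while nab3 is lower in the labelled deletion.

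The other called pairs moved in the same direction by different amounts, or with a sense gene that was nearly level. SPNCRNA.1653, over the 5′ end of the splicing factor gene cwf28, had 5.03 and 5.38 FPKM in the labelled deletion, against 0.62 and under 0.01 FPKM in wild type, while cwf28 had 41.6 and 35.2 FPKM in the labelled deletion and 37.3 and 37.9 FPKM in wild type. SPNCRNA.1487 had 2.53 and 1.84 FPKM in the labelled deletion, against 6.44 and 4.84 FPKM in wild type, and missed the threshold on its own (adjusted p = 0.0541), while mag2, a DNA glycosylase gene, had 7.26 and 7.31 FPKM in the labelled deletion, against 106 and 59.4 FPKM in wild type. SPNCRNA.648, over the 3′ end of the repair nuclease gene mre11, had 0.29 and 0.70 FPKM in the labelled deletion, against 7.31 and 7.19 FPKM in wild type, a log2 difference of -2.48 (adjusted p = 0.00866). A further RNA opposite mre11, SPNCRNA.646, fell as well, with 23.9 and 26.6 FPKM in the labelled deletion, against 46.4 and 57.9 FPKM in wild type, and mre11 itself fell by 0.59 on the log2 scale (adjusted p = 0.0415). Without labelled deletion replicate 1 or 2 the calls of SPNCRNA.646 (adjusted p of 0.2002 and 0.153) and mre11 (0.393 and 0.417) were lost, and that of SPNCRNA.648 without replicate 1 (0.0544). The pairs of SPNCRNA.1487 and SPNCRNA.648 lost their calls without labelled deletion replicate 1, all 3 pairs without labelled deletion replicate 2 or wild type replicate 2, and that of SPNCRNA.648 also without wild type replicate 1, with adjusted p between 0.0501 and 0.169. With a pseudocount of 5 the pairs of SPNCRNA.1653 and SPNCRNA.648 were not called either. None of the 3 pairs was called with a pseudocount of 0.1 or with a replicate block, and a filter at a mean of 5 FPKM left all 3 untested.

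Genes that start near an antisense RNA on the other strand can share a promoter region with it. A coding gene with a divergent start within 500 nt was tested beside 179 of the tested antisense RNAs. Of the 11 among them that rose, 5 had a divergent neighbour that rose, 5 had one that was not called and 1 had one that fell, and of the 160 not called 14 had a neighbour that rose. The 5 risers with a rising neighbour were SPNCRNA.1637 beside mub1, SPNCRNA.615 beside gmh1, SPNCRNA.718 beside dak1, SPNCRNA.653 beside hxk1 and SPNCRNA.1602 beside ker1. SPNCRNA.615, given above, starts 115 nt from gmh1, which had 26.4 and 25.4 FPKM in the labelled deletion, against 7.76 and 10.1 FPKM in wild type. The neighbour dak1, which encodes a dihydroxyacetone kinase, had 3260 and 3494 FPKM in the labelled deletion, against 1262 and 1068 FPKM in wild type, and SPNCRNA.718, which starts 52 nt from dak1 and lies opposite ept1, had 54.0 and 58.6 FPKM in the labelled deletion, against 37.1 and 41.9 FPKM in wild type. Its log2 difference was 0.50 (adjusted p = 0.0466). The call was lost without the filter on low values, without the intensity trend, after rescaling, with a replicate block, and without labelled deletion replicate 1 or 2. SPNCRNA.608 went against its neighbour: it had 38.1 and 38.2 FPKM in the labelled deletion, against 24.3 and 19.5 FPKM in wild type, while SPAC11D3.01c had 1802 and 2281 FPKM in the labelled deletion, against 27914 and 18794 FPKM in wild type. Of the 8 RNAs with such a neighbour that fell, 1 had a neighbour that fell, SPNCRNA.1328 beside mug168, and 7 had one that was not called. All 7 called neighbours lost their calls without labelled deletion replicate 1 or 2, with adjusted p between 0.0774 and 0.428. Leaving out labelled deletion replicate 1 or 2 also ended the calls of SPNCRNA.608, SPNCRNA.653, SPNCRNA.1602 and SPNCRNA.1328. That of SPNCRNA.608 was lost without the filter on low values as well. A filter at a mean of 5 FPKM ended that of SPNCRNA.653, and leaving out the intensity trend ended that of SPNCRNA.1328. The RNAs named for their neighbours were chosen after their values were seen.

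The promoter windows were also searched for motifs of a stress and a mating regulator. The cyclic AMP response element core TGACGT, bound by Atf1, stood on either strand before 92 of the 736 antisense RNAs (12.5%) and before 1106 of the 12606 starts (8.77%), and of its 79 tested carriers 3 rose, 8 fell and 68 were not called, where 6.33% of all tested antisense RNAs rose and 5.71% fell. The carriers were not tested against the other RNAs. The TR box TTCTTTGTT, bound by the mating regulator Ste11, stood before 23 antisense RNAs (3.12%) and before 395 of the starts (3.13%), and of its 22 tested carriers 1 rose and 21 were not called.

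Genes whose products act on antisense RNA were counted from 4 lists, to be read beside the 13.1% of coding genes called higher and 3.49% called lower. Of 35 RNA surveillance genes tested, the exosome subunit gene rrp42 and the poly(A) polymerase gene cid14 rose and red5 fell. Of 22 genes of RNA interference and heterochromatin, limma called 0 higher and 0 lower, where 3 were higher and 1 lower at an unadjusted p under 0.05, and the median log2 difference was -0.05. Of 24 genes for chromatin over coding regions, the deacetylase gene clr6, alp13 and prw1, whose products act with Clr6, and the histone chaperone gene asf1 rose and 20 were not called. The deacetylase gene had 80.1 and 74.7 FPKM in the labelled deletion, against 53.4 and 51.4 FPKM in wild type (log2 difference 0.55, adjusted p = 0.0273). Of 17 termination genes seb1 rose and 16 were not called.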

How the data were processed

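Total RNA of 4 libraries, 2 per strain, was sequenced by a commercial provider. The authors deposited Cufflinks transcript tables with FPKM values and lower and upper bounds per transcript, and the tools named in the submitters' processing notes are Cuffdiff, Cufflinks, HISAT2 and SAMtools, on build ASM294v2. The sources used here give neither versions nor the strand setting. A score column that the authors deposited beside these values was not used. FPKM are not counts, so no count test was run.

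Gene values are sums over transcripts. A gene entered the tests if its mean reached 1 FPKM and its longest transcript 200 nt. The model was limma (version 3.58.1, R 4.3.3; lmFit, then eBayes with an intensity trend) on log2(FPKM + 1), adjusted by Benjamini and Hochberg's method over all genes tested, with a threshold of 0.05. Strand differences were tested by limma, without a trend, on log2(antisense FPKM + 1) minus log2(sense FPKM + 1) over all opposite-strand pairs. Each adjusted p comes from these models, with 2 libraries per group, and changes on these scales understate those of low genes. On simulated data, 72% of 2-fold and 100% of 4-fold changes of non-coding genes were called, as were 74.5% and 98% for pairs. Those changes were put only into genes averaging 5 FPKM or more. Every gene of a group got the same added scatter, set by the median over such genes. The shares are therefore not measured for lower RNAs, nor for the wider scatter of the antisense RNAs. The deposited bounds had a median half-width of 17.7% to 19.3% of the value for the antisense RNAs, which covers counting error only.

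The RNAs named are the 8 largest called rises and 8 largest called falls among those averaging 5 FPKM or more without overlap of the groups, the 5 highest levels, the 10 largest strand differences with opposite directions, RNAs opposite zrt1, zym1, loz1, fet4, zhf1, cis4, zrg17, zip1, adh4, gcd1, dak2, pho1, pho84 or mating genes, called RNAs with a Loz1 response element, and the main partner of each. Members and lists were chosen with earlier results of these data known. RefSeq sequence and annotation (ASM294v3) were matched by locus tag to 736 of the 764 RNAs, of which 733 have the same coordinates in both builds. Alternatives tried were pseudocounts of 0.1 and 5, no filter or a mean of at least 5 FPKM, no trend, median-ratio rescaling, a replicate block, leaving out each library, and stricter or different membership.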

Additional observations from a re-analysis of the deposited data

How the results depend on the processing

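Under a pseudocount of 0.1, 3 pairs had the antisense change above the sense change, and under a pseudocount of 5, 17 did and 14 had it below. Under the main settings 80 of 698 tested main sense partners were called higher (11.5%) and 38 lower (5.44%), against 11.9% and 4.37% of all genes. Without a filter on low values 47 main sense partners were called higher and 20 lower, and without the intensity trend 50 were called higher. With a mean of at least 5 FPKM 3 pairs were called below. Median-ratio rescaling left 27 antisense RNAs and 41 partners called higher and moved the median of the antisense RNAs to -0.061. Of the calls on the values as deposited, 27 of 41 rises and 35 of 37 falls were kept after rescaling. Libraries with the same replicate number did not deviate together (r = -0.01 over 6315 genes). The labels do not say whether they share more than the number. With a replicate block 34 antisense RNAs were called higher, 27 lower, 50 partners higher, 4 pairs above and 6 below; of the calls without the block, 31 of 41 rises, 26 of 37 falls, 4 of 10 pairs above and 3 of 6 below were kept.

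Leaving out one library at a time gave 5 to 131 antisense RNAs higher, 3 to 106 lower, 1 to 232 partners higher, 4 to 83 lower, 4 to 21 pairs above, 6 to 16 below, and a median of 0.038 to 0.101. For antisense RNAs and partners the counts were below those on all libraries without either labelled deletion library and above them without either wild type library. The library left alone in its group is assumed to vary like the others.

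With at least 80% overlap, 23 antisense RNAs and 44 partners were called higher and 21 partners lower. With full overlap there were 10 and 12 antisense RNAs, 13 and 7 partners, and 3 and 1 pairs, from fewer RNAs tested. Choosing members by RefSeq's coding exons, or leaving out those with a value under 0.01 FPKM, both added after seeing the data, kept every count within 1.5 times.

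Single values that changed sign when a library was left out were not called in that setting. The log2 difference ranged from -0.225 to 0.067 for dal1, from -0.433 to 0.982 for hsp3105, from -0.105 to 0.388 for mug124, from -0.035 to 1.20 for rec7, from -0.378 to 0.780 for SPNCRNA.1376, from -0.103 to 0.327 for SPNCRNA.666 (-0.017 after rescaling) and from -1.88 to 0.326 for SPNCRNA.798. The strand difference ranged from -0.014 to 0.160 for SPNCRNA.1302, from -0.150 to 0.793 for SPNCRNA.1376, from -0.206 to 0.297 for SPNCRNA.1503, from -0.289 to 0.072 for SPNCRNA.25, from -0.141 to 0.834 for SPNCRNA.645 and from -1.58 to 1.07 for SPNCRNA.798. The cause was not tested. Depth limits the low RNAs: 116 had a value under 0.01 FPKM in some library.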
